A study of Gallus gallus with 20 samples.

Results

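The HOX genes that pattern the trunk were followed here through feather-forming and scale-forming skin of the chicken embryo. The list named 10 genes, HOXA5, HOXA7, HOXB4, HOXB5, HOXB6, HOXB8, HOXB9, HOXC6, HOXC8 and HOXC9, and each was read from the probe set annotated to its symbol that had the highest mean over the 20 arrays. A probe set was found for 8 of the 10, out of 13009 genes with a probe set of their own on the array. HOXB9 and HOXC6 had none under those symbols in the annotation used here, and no value is given for them. HOXA5 and HOXA7 lie on chromosome 2, the HOXB genes on chromosome 27 and HOXC8 and HOXC9 on chromosome 34 of the GRCg7b assembly.

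RNA came from white leghorn embryos. Dorsal skin, which makes feathers, was taken undifferentiated at embryonic day 7 (E7) and differentiated at E9. Metatarsal skin of the leg, which makes scales, was taken undifferentiated at E9 and differentiated at E11. Each skin was parted on ice, in a calcium- and magnesium-free EDTA solution, into epithelium and mesenchyme, which gave 8 groups written as day, feather (f) or scale (s), and epithelium (e) or mesenchyme (m). There were 2 arrays each of E7fe, E7fm, E9se and E9sm and 3 each of E9fe, E9fm, E11se and E11sm. The tissue of each array was labelled as pooled, with no number of embryos, and every group was untreated. Comparing matched stages (E9 scale with E7 feather, E11 scale with E9 feather) sets older leg skin against younger back skin, so region and age cannot be told apart there. The comparison of the E9 groups holds age fixed but not stage.

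HOX genes encode homeodomain transcription factors that give cells their position along the body and limb axes. They sit in clusters in which the order of the genes follows the order of their domains: genes at one end act in the hindbrain and neck, those in the middle in the trunk, and those at the other end in the tail and the tips of the limbs. In dermal fibroblasts of adult human skin, HOX genes remain expressed in patterns that differ between body sites. In chicken embryos, transplanted dermis largely sets whether the overlying epidermis makes feathers or scales.

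The labelled compartments carried their defining RNA. The mean log2 level of 12 epithelium markers (keratins, EPCAM, CDH1, TP63 and others) was 10.1 to 11.1 on the epithelium arrays and 5.64 to 8.21 on the mesenchyme arrays, and that of 13 mesenchyme markers (collagens, PRRX1, TWIST1 and others) was 11.9 to 12.1 on the mesenchyme arrays and 7.93 to 9.90 on the epithelium arrays. A pair of arrays stood apart from their groups, those labelled E9fe replicate 1 and E9fm replicate 1. On E9fm replicate 1 the hindlimb gene TBX4 was at 10.39, against 5.29 and 5.35 on the other E9fm arrays and 10.11 to 11.16 on the scale mesenchyme arrays, and the epithelium markers averaged 8.21 against 5.75 and 6.07. On E9fe replicate 1 TBX4 was at 6.53 against 4.14 and 4.14, and the mesenchyme markers averaged 9.90 against 7.97 and 7.93. HOXA13, a gene of the limb tips, read 8.49, 3.77 and 4.37 on E9fm replicates 1, 2 and 3 and 8.46 to 9.03 on the scale mesenchyme arrays, and PITX1, a hindlimb gene, read 10.71, 7.41 and 7.13, with 9.48 to 11.28 in scale mesenchyme. In these 3 genes the array labelled E9fm replicate 1 lay within the range of the scale mesenchyme arrays. Whether the labels of the pair are right could not be settled from the files, and every 20-array value of the E9 feather groups carries that doubt. Both arrays were kept under their labels, and counts of the trunk genes called are also given with the 18 arrays that remain without the pair. The pair was picked after its values were seen, and the trunk HOX genes are themselves among the genes in which it stands apart, so the 18-array values are no independent support.

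Levels are RMA log2 values, so a difference of 1 is a doubling. The lower quartile of all probe sets on an array lay between 4.03 and 4.31, the median between 5.62 and 5.69 and the upper quartile between 7.63 and 7.98. HOXB8 stayed between 3.29 and 4.32 on all 20 arrays, in the lowest parts of each array's range. HOXC8 ran from 3.47 to 5.17, its highest values being 5.17 on E11se replicate 3 and 5.16 on E9fm replicate 3. The other 6 genes spanned at least 2.79 log2 units each between their lowest and highest arrays, and HOXB5 spanned 5.45 and HOXC9 5.07.

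**Figure D1:**
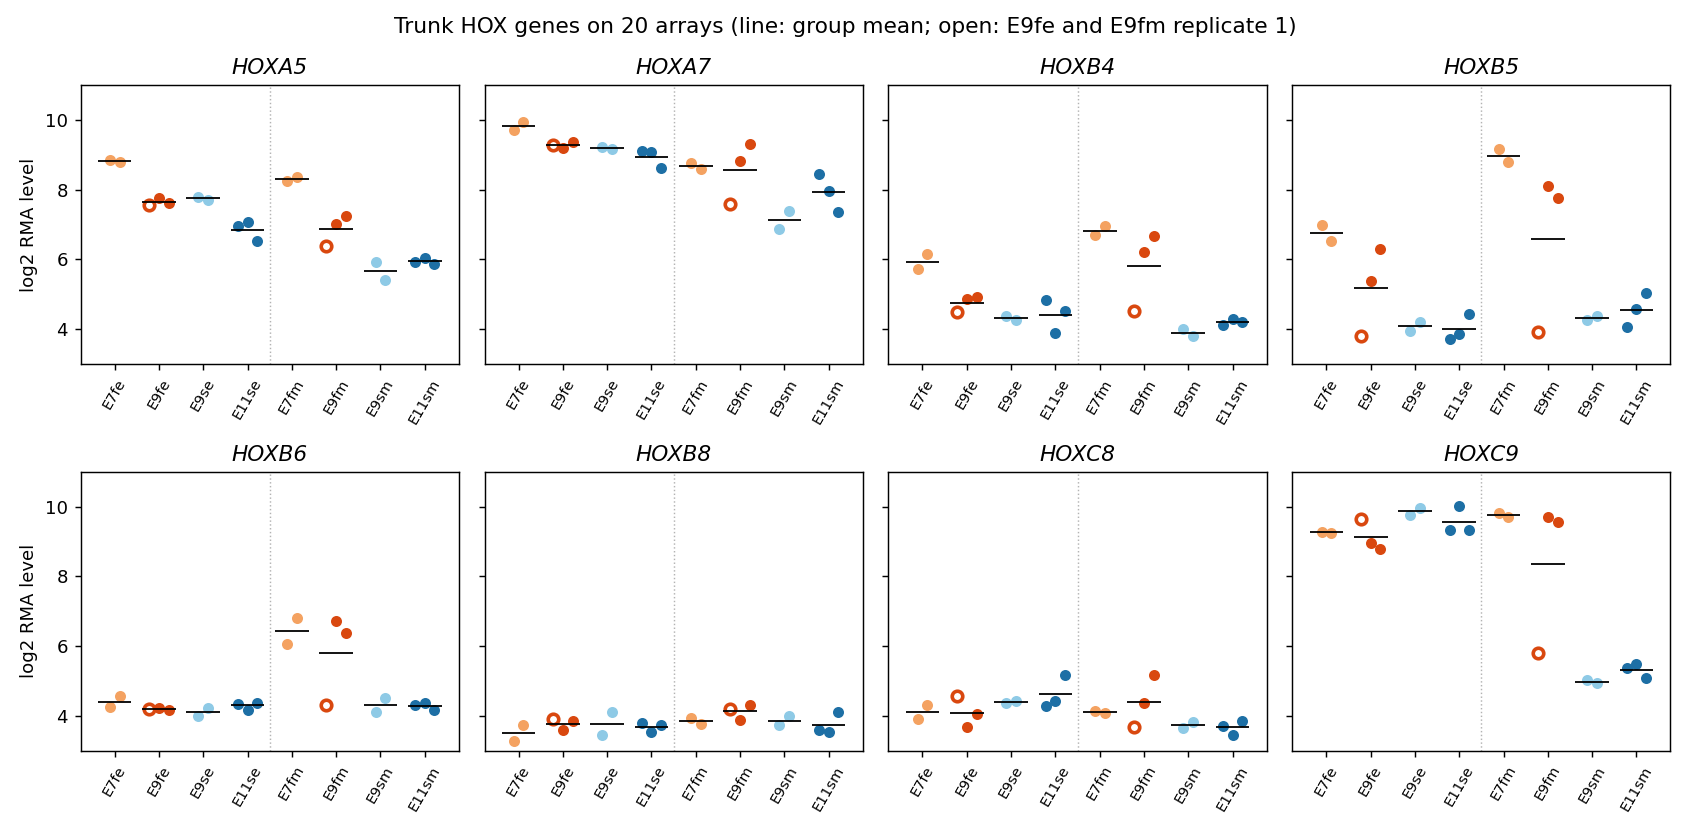
Log2 RMA level (vertical axis) of each of the 8 trunk HOX genes on each array, by group (horizontal axis; epithelium left of the dotted line, mesenchyme right). Lines are group means and open points are E9fe and E9fm replicate 1; HOXC9 averages 9.76 in E7fm and 4.98 in E9sm and stays between 8.78 and 10.01 on the epithelium arrays.

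In undifferentiated mesenchyme, 4 trunk HOX genes held far less RNA in scale than in feather skin. HOXC9, which patterns the thoracic region in mice, read 9.82 and 9.69 on the E7fm arrays and 5.02 and 4.94 on the E9sm arrays. HOXB5, which takes part in positioning the forelimb in mice, read 9.16 and 8.79 in E7fm and 4.25 and 4.38 in E9sm. HOXB4, known for expanding blood stem cells when overexpressed, read 6.70 and 6.95 in E7fm and 4.0 and 3.81 in E9sm. In these 3 genes every feather array lay well above every scale array, by more than the spread within either group. HOXA5, needed for the lung and for the vertebrae at the neck to thorax boundary in mice, read 8.23 and 8.37 in E7fm and 5.93 and 5.40 in E9sm. The groups did not overlap in 7 of the 8 genes, all lower in scale, but the same held for 18.9% of all probe sets as lower.

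In the fit across all 38439 probe sets (limma, Benjamini-Hochberg adjustment), 4 of the 8 genes were lower in E9sm than in E7fm and 0 were higher, where 0.419% of all probe sets were called lower. The log2 difference was -4.77 for HOXC9 (SE 0.83, adjusted p = 0.0114), -4.66 for HOXB5 (SE 0.98, adjusted p = 0.0361), -2.92 for HOXB4 (SE 0.47, adjusted p = 0.00729) and -2.63 for HOXA5 (SE 0.25, adjusted p = 4.41e-05). HOXB6 read 6.06 and 6.79 in E7fm and 4.13 and 4.52 in E9sm, without overlap, but its difference of -2.10 (SE 0.51) had an adjusted p of 0.0741, and 0.0447 with the replicate number as a block. HOXA7, also studied in human keratinocytes, read 8.75 and 8.61 against 6.88 and 7.40 (difference -1.54, SE 0.42, adjusted p = 0.134). HOXC8 differed by -0.37 (SE 0.38) and HOXB8 by 0.00 (SE 0.25), neither past the test. The median difference over the 8 genes was -2.37, beside 0.01 over all probe sets. With 18 arrays the differences stay the same by construction and the error shrinks: 6 of the 8 passed, all lower (background 1.01%), HOXA7 and HOXB6 being added. Leaving out single arrays, HOXA5 passed in all 20 refits, while 1 gene alone passed without E7fm replicate 1, without E7fm replicate 2 or without E9sm replicate 2. HOXB5 lost its call in 12 of the 20 refits, with an adjusted p of up to 0.272.

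The second probe sets bear on 3 of these genes. All 4 probe sets of HOXA7 were lower in E9sm, by between -1.05 and -1.54. For HOXA5 the probe set used is of a kind whose probes also match other transcripts, and the second set of the gene differed by -0.07 (SE 0.29) where the first differed by -2.63. That second HOXA5 set stayed between 5.27 and 6.35 on all arrays, around the array median. By the names of the 2 sets (letters S and A), they were designed to opposite strands of one source sequence. The second may therefore not read the same RNA, which was not tested. This limit holds wherever the 2 HOXA5 sets are compared or averaged below. The HOXA7 set at -1.05 is also of the kind that matches other transcripts. For HOXB6 the other 2 sets, which kept to between 3.51 and 5.49 on all arrays, differed by 0.07 and -0.33. The set at 0.07 stayed between 3.51 and 4.24, near or below the lower quartile. The set at -0.33 is, by its name, of the opposite-strand design to the HOXB6 set used, and may not read the same RNA. The gene models of HOXB5 and HOXB6 overlap each other and that of HOXB3 in the reference annotation, so RNA shared by neighbours could read in more than 1 of these genes.

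Markers of some other cell types also differed between E7fm and E9sm. The mean of 6 erythroid markers was 10.56 to 11.08 in E7fm and 8.13 to 8.45 in E9sm, and that of 12 epithelium markers 5.64 to 5.66 and 6.53 to 6.65. The mean of 12 neuron and glia markers was 5.85 to 5.93 in E7fm and 5.53 to 5.64 in E9sm. That of 14 skeletal muscle markers was 4.59 to 4.67 and 4.66 to 4.70, with overlap. Cartilage and tendon markers, 8 in number, averaged 6.68 to 6.85 and 7.01 to 7.33. Endothelium markers, 9 in number, averaged 7.51 to 7.71 and 6.43 to 7.92, with overlap. Their part in the HOX differences was not tested. In bulk tissue of this kind, fewer cells that express a gene and less RNA per cell cannot be told apart.

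In undifferentiated epithelium the same comparison gave smaller gaps, and not in all the genes. HOXB5 read 6.98 and 6.53 on the E7fe arrays and 3.94 and 4.21 on the E9se arrays, HOXB4 read 5.72 and 6.14 against 4.38 and 4.26, and HOXA5 read 8.85 and 8.80 against 7.80 and 7.71. HOXC9 went the other way, at 9.28 and 9.25 in E7fe and 9.76 and 9.97 in E9se. The groups did not overlap in 7 of the 8 genes, 5 lower and 2 higher in scale, but with 2 arrays a side the same held for 19.4% of all probe sets as lower and 17.5% as higher. With 20 arrays 0 of the 8 passed in limma (0.463% of all probe sets were called lower). At an unadjusted p under 0.05 there were 3 of the 8, beside 6.54% of all probe sets. The differences were -2.68 for HOXB5 (SE 0.98, adjusted p = 0.43), -1.61 for HOXB4 (SE 0.47, adjusted p = 0.192), -1.07 for HOXA5 (SE 0.25, adjusted p = 0.0569) and 0.60 for HOXC9 (SE 0.83, adjusted p = 1). With 18 arrays HOXB5, HOXB4 and HOXA5 passed as lower (adjusted p = 0.000487, 0.00319 and 0.00997, background 1.09%), and HOXC9 did not (adjusted p = 0.323). Without E9fm replicate 1 alone the count was also 3. With 20 arrays the second HOXA5 probe set differed by -0.23 (SE 0.29), not past the test. Neuron and glia markers averaged 6.63 to 6.64 in E7fe and 5.80 to 5.98 in E9se, and mesenchyme markers 8.33 to 8.34 and 8.56 to 8.93. Erythroid markers averaged 7.43 and 8.09 in E7fe and 6.65 and 7.03 in E9se, and cartilage and tendon markers 5.79 to 6.20 and 6.33 to 6.57. Their part was not tested.

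The difference between the compartments was tested directly, as the mesenchymal minus the epithelial difference. With 20 arrays the interaction was -5.38 for HOXC9 (SE 1.17, adjusted p = 0.0573), and for HOXA5 the interaction was -1.57 (SE 0.35, adjusted p = 0.064). The second HOXA5 probe set differed by -0.07 in mesenchyme and -0.23 in epithelium, so the HOXA5 interaction was read by the first set. Of the 8 genes 0 passed in limma, where 0.492% of all probe sets were called in either direction. An unadjusted p under 0.05 was found for 3 of the 8 and for 6.43% of all probe sets. With 18 arrays HOXC9, HOXB6 and HOXA5 passed (background 1.68%), HOXB6 with an interaction of -1.81 (SE 0.32, adjusted p = 0.00772). HOXB5, with an interaction of -1.98, had an adjusted p of 0.0579 there.

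At the differentiated stage the E9fm arrays fell apart, with replicate 1 on one side and the other 2 on the other. HOXC9 read 5.82, 9.69 and 9.56 on the E9fm arrays and 5.36, 5.49 and 5.08 on the E11sm arrays. HOXB5 read 3.91, 8.10 and 7.76 in E9fm and 4.07, 4.57 and 5.04 in E11sm. HOXB6 read 4.30, 6.71 and 6.37 in E9fm and 4.30, 4.36 and 4.18 in E11sm. In each of these genes E9fm replicate 1 sat at or near the scale arrays and the other 2 feather arrays far above them. HOXB4 behaved alike, at 4.52, 6.20 and 6.68 against 4.13, 4.30 and 4.21, and HOXA5 read 6.39, 7.02 and 7.24 against 5.93, 6.03 and 5.87.

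All 8 differences between E11sm and E9fm were negative with 20 arrays, with a median of -1.23 beside -0.02 over all probe sets, and 0 passed in limma, where 0% of all probe sets were called lower. An unadjusted p under 0.05 was found for 6 of the 8, beside 4.71% of all probe sets. HOXC9 had a difference of -3.05 (SE 0.67, adjusted p = 0.171) and HOXA5 of -0.94 (SE 0.20, adjusted p = 0.163). The second HOXA5 probe set differed by -0.57 (SE 0.23), not past the test. With 18 arrays 7 of the 8 passed, all lower, where 1.23% of all probe sets were called lower. HOXC9 was then lower by -4.32 (SE 0.20, adjusted p = 1.43e-08), HOXB5 by -3.37 (SE 0.31, adjusted p = 2.02e-05), HOXB6 by -2.26 and HOXB4 by -2.22. HOXA5 and HOXA7 were lower by -1.18 and -1.13, and HOXC8, which patterns thoracic vertebrae in mice, by -1.09 (adjusted p = 0.0492). HOXB8 did not pass (difference -0.35, adjusted p = 0.9). Leaving out E9fm replicate 1 alone raised the count from 0 to 6. With all 20 arrays kept, array weights called 4 genes, HOXA5 (adjusted p = 0.0174), HOXB4 (0.0159), HOXB6 (0.0327) and HOXC9 (0.0124), and the mean of all probe sets of a gene called HOXA5 (adjusted p = 0.0493).

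Markers of other cells also differed here. Skeletal muscle markers averaged 4.90, 6.04 and 5.80 on the E9fm arrays and 4.52 to 4.75 in E11sm, erythroid markers 8.17, 9.78 and 9.95 against 8.23 to 8.73, and neuron and glia markers 5.61, 5.98 and 6.20 against 5.48 to 5.54. Epithelium markers averaged 8.21, 5.75 and 6.07 in E9fm and 6.66 to 7.40 in E11sm. In each of these lists the E9fm arrays other than replicate 1 lay on one side of all E11sm arrays. Their part in the HOX differences was not tested.

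In differentiated epithelium HOXB5 read 3.81, 5.40 and 6.30 on the E9fe arrays and 3.72, 3.86 and 4.44 on the E11se arrays, so that E9fe replicate 1 lay among the scale arrays. HOXA5 read 7.57, 7.76 and 7.61 in E9fe and 6.95, 7.07 and 6.53 in E11se, without overlap. The groups did not overlap in 2 of the 8 genes, lower in scale, beside 3.49% of all probe sets as lower. With 20 arrays 0 of the 8 passed in limma (background 0.187% lower), and 1 of the 8, beside 5.76% of all probe sets, had an unadjusted p under 0.05. HOXA5 had a difference of -0.80 (SE 0.20, adjusted p = 0.155). With 18 arrays HOXB5 (-1.84, SE 0.31, adjusted p = 0.00383) and HOXA5 (-0.84, SE 0.19, adjusted p = 0.0241) passed as lower, beside 1.58% of all probe sets. With 20 arrays the second HOXA5 probe set differed by 0.11 (SE 0.23), not past the test, so the lower level was read by the first set. Neuron and glia markers averaged 5.61 to 5.90 in E9fe and 5.25 to 5.29 in E11se, erythroid markers 6.83 to 7.97 and 6.56 to 7.07, mesenchyme markers 7.93 to 9.90 and 8.19 to 8.45, and cartilage and tendon markers 5.90 to 7.26 and 6.30 to 6.83, and their part was not tested.

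Of the interactions between the compartments at this stage 0 passed in limma with 20 arrays (background 0.0702%), and 4 of the 8, beside 5.63% of all probe sets, had an unadjusted p under 0.05. With 18 arrays HOXB4, HOXB6, HOXC8 and HOXC9 passed (background 2.27%), each with a more negative scale minus feather difference in mesenchyme than in epithelium. In epithelium those differences were -0.48 for HOXB4, 0.10 for HOXB6, 0.77 for HOXC8 and 0.70 for HOXC9, and none of the 4 passed, whereas in mesenchyme all 4 passed as lower. HOXB6 was near the lower quartile on all epithelium arrays, with little room to be lower in scale. HOXC8 was below the array median on every array, its highest values being those of E11se replicate 3 (5.17) and E9fm replicate 3 (5.16).

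The E9 groups compare skins of the same age. In mesenchyme, HOXC9 on the E9sm arrays (5.02 and 4.94) lay below all 3 E9fm arrays, and HOXA7, at 6.88 and 7.40 against 7.57, 8.81 and 9.31, did too. So did HOXA5 and HOXB4. The groups thus did not overlap in 4 of the 8 genes, all lower in scale, beside 8.27% of all probe sets as lower. HOXB5 and HOXB6 overlapped through E9fm replicate 1. All 8 differences were negative with 20 arrays, and 0 passed in limma (0% of all probe sets called lower). An unadjusted p under 0.05 was found for 6 of the 8 and for 6.52% of all probe sets. The second HOXA5 probe set differed by -0.52 (SE 0.26), not past the test. With 18 arrays 6 of the 8 were lower in E9sm (background 1.70%), by -4.64 for HOXC9, -3.61 for HOXB5, -2.53 for HOXB4, -2.22 for HOXB6, -1.92 for HOXA7 and -1.46 for HOXA5, with adjusted p-values from 2.14e-08 to 0.00198. HOXC8 (-1.02, adjusted p = 0.0914) and HOXB8 (-0.24) did not pass. Without E9fm replicate 1 alone 6 passed. Skeletal muscle markers averaged 4.90, 6.04 and 5.80 on the E9fm arrays and 4.66 to 4.70 in E9sm, so they were higher on the 2 feather arrays that also held more RNA of HOXC9, HOXB5, HOXB4 and HOXB6. On those 2 arrays erythroid markers (9.78 and 9.95, against 8.13 to 8.45 in E9sm) and neuron and glia markers (5.98 and 6.20, against 5.53 to 5.64) were higher too, and the part of these cells was not tested.

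In the epithelium at E9, HOXC9 read 9.64, 8.94 and 8.78 in feather and 9.76 and 9.97 in scale, higher on both scale arrays. The groups did not overlap in 1 of the 8 genes as higher and 1 as lower. The same held for 11.6% and 13.6% of all probe sets. HOXA5, HOXA7 and HOXB6 overlapped between the skins, with differences of 0.11, -0.09 and -0.08. With 20 arrays 0 of the 8 passed in limma (background 0.0182% lower), and 0 of the 8, beside 7.39% of all probe sets, had an unadjusted p under 0.05. With 18 arrays HOXB5 was lower by -1.77 (SE 0.34, adjusted p = 0.00829, background 1.50% lower) and HOXC9 was higher by 1.01 (SE 0.22, adjusted p = 0.0179, background 1.69% higher). Mesenchyme markers averaged 9.90, 7.97 and 7.93 on the E9fe arrays and 8.93 and 8.56 in E9se. Erythroid markers averaged 6.83, 7.59 and 7.97 against 6.65 and 7.03. Neuron and glia markers, and cartilage and tendon markers, overlapped between the skins, and the part of these cells was not tested. The 6 comparisons of scale with feather share groups: E9fe and E9fm serve as the feather side both at the late stage and at E9, and E9se and E9sm as the scale side both at the early stage and at E9.

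**Figure D2:**
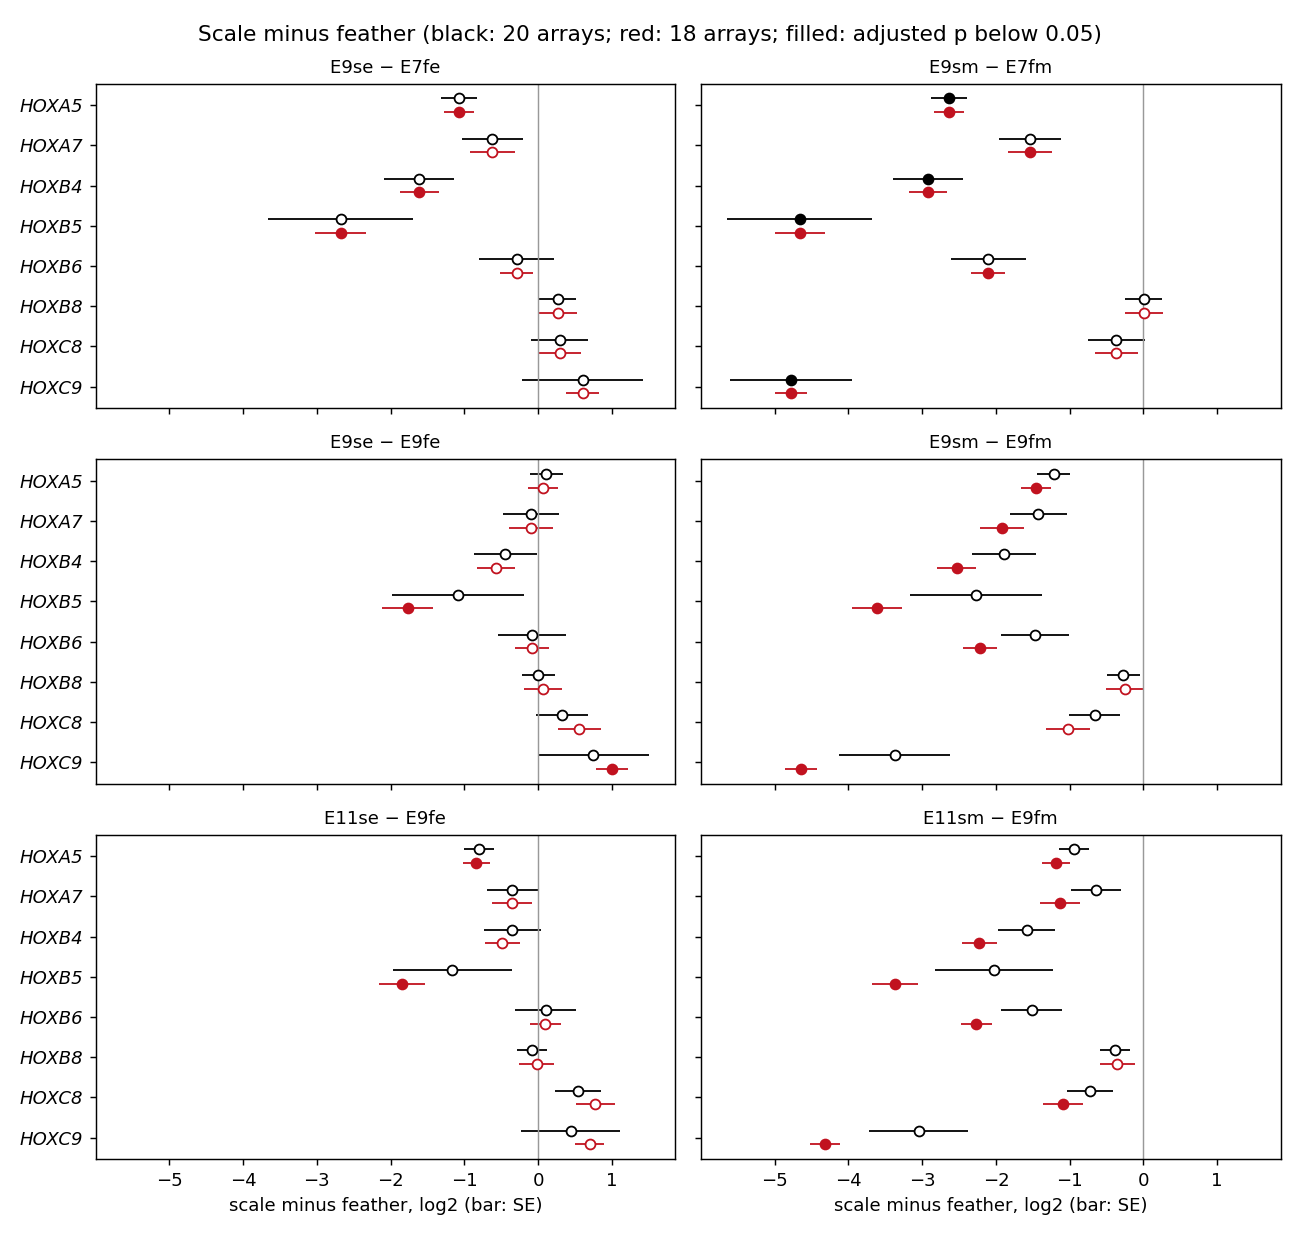
Scale minus feather log2 difference (horizontal axis, bar: standard error of the fit) for the 8 trunk HOX genes, epithelium left and mesenchyme right, with all 20 arrays (black) and with 18 (red). Filled points passed at an adjusted p below 0.05; in mesenchyme at the early stage 4 points are filled in black, and in the later panels filled points appear in red alone.

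With time in feather skin, HOXA5 was the one gene that moved past the test, and it fell in both compartments. In feather epithelium it went from 8.85 and 8.80 at E7 to 7.57, 7.76 and 7.61 at E9 (difference -1.18, SE 0.22, adjusted p = 0.0213, background 0.414% lower). In feather mesenchyme it went from 8.23 and 8.37 to 6.39, 7.02 and 7.24 (difference -1.42, SE 0.22, adjusted p = 0.00642, background 0.304% lower). The E9 arrays lay below both E7 arrays in each case. They did so in 5 of the 8 genes in epithelium and 3 in mesenchyme, beside 10.1% and 11.6% of all probe sets. With 18 arrays both differences still passed, at -1.14 (adjusted p = 0.00632, background 1.21%) and -1.18 (adjusted p = 0.00545, background 0.924%). The epithelial call was lost without E7fe replicate 1, E7fe replicate 2 or E9fe replicate 3 (adjusted p of up to 0.269), and the mesenchymal one without E7fm replicate 1 or 2 (up to 0.157). Neither passed when the mean of the 2 HOXA5 probe sets was used (-0.60, adjusted p = 0.0645, and -0.49, adjusted p = 0.161) or when the fit held those groups alone (adjusted p = 0.0912 and 0.35). The second HOXA5 probe set differed by -0.02 (SE 0.26) in epithelium and by 0.45 (SE 0.26) in mesenchyme, so the fall was read by 1 of the 2 sets. Between E7 and E9, erythroid markers went from 10.56 to 11.08 down to 8.17 to 9.95 in feather mesenchyme and muscle markers from 4.59 to 4.67 up to 4.90 to 6.04, and neuron and glia markers in feather epithelium from 6.63 to 6.64 down to 5.61 to 5.90. Their part was not tested.

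HOXB5 differed between E7 and E9 by -1.59 in feather epithelium and by -2.39 in feather mesenchyme, and neither passed (adjusted p = 0.952 and 0.378). In scale skin HOXA5 in epithelium went from 7.80 and 7.71 at E9 to 6.95, 7.07 and 6.53 at E11. That difference of -0.91 (SE 0.22) did not pass with 20 arrays (adjusted p = 0.0891, 0 of 8 genes called in limma and 1 with an unadjusted p under 0.05, background 0.395% lower) and passed with 18 (adjusted p = 0.0215, background 1.03%). With 20 arrays the second HOXA5 probe set differed by 0.32 (SE 0.26) there, not past the test. In scale mesenchyme 0 of the 8 genes and 0% of all probe sets were called in either direction, with 20 or with 18 arrays (limma, with 0 and 1 of the 8 at an unadjusted p under 0.05), and HOXA5 differed by 0.28 (SE 0.22). The fall of HOXA5 in feather mesenchyme and its steadier level in scale mesenchyme differed by 1.70 (SE 0.32, adjusted p = 0.0989) with 20 arrays and by 1.45 (SE 0.27, adjusted p = 0.0358, background 0.161% higher) with 18. With 20 arrays the second HOXA5 set differed by 0.45 in feather mesenchyme and by -0.05 in scale mesenchyme, neither past the test.

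Within a skin, the probe set used for HOXB6 was higher in feather mesenchyme, and those used for HOXC9, HOXA5 and HOXA7 were higher in scale epithelium. With 20 arrays the counts called in feather skin lay near the share of all probe sets, and are not read as a trait of the list. Calls of HOXA5 and HOXA7 as higher in epithelium were not confined to scale skin. HOXA5 also passed at E9 in feather skin with 20 arrays, but not without E9fm replicate 1, whose label is in doubt, nor with 18 arrays. A second HOXA7 probe set was lower in feather mesenchyme by -1.68 at E7 (limma, adjusted p = 0.0116) and by -1.39 at E9 (adjusted p = 0.00862). That set, like the HOXA5 set used, is of the kind whose probes also match other transcripts. The HOXA7 set used (-1.13 and -0.72) and the remaining sets (between -1.15 and 0.16) did not pass in feather skin with 20 arrays. At E7, HOXB6 read 6.06 and 6.79 in feather mesenchyme and 4.26 and 4.56 in feather epithelium (difference 2.02, SE 0.51, adjusted p = 0.0128). It was the 1 gene of 8 higher in mesenchyme with 20 arrays, and 0 were lower, where 6.28% and 6.07% of all probe sets were called higher and lower. Its call was lost without E7fe replicate 1 or without E7fm replicate 2 (adjusted p of up to 0.152). The other HOXB6 probe sets, 1 of the opposite-strand design and 1 dim on every array, differed by 0.21 (SE 0.30) and 0.01 (SE 0.22), neither past the test. With 18 arrays HOXB4 (0.90, adjusted p = 0.0307) and HOXB5 (2.22, adjusted p = 0.000261) passed as higher too and HOXA7 (-1.13, adjusted p = 0.0178) as lower, beside 7.29% and 6.91% of all probe sets.

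At E9 in feather skin HOXB6 was higher in mesenchyme (1.60, SE 0.41, adjusted p = 0.0127) and HOXA5 lower (-0.76, SE 0.20, adjusted p = 0.0133), with 8.42% and 8.55% of all probe sets called higher and lower. HOXB6 lost its call without E9fm replicate 2 or 3, and HOXA5 without E9fe replicate 2 or E9fm replicate 1, and both lost it when the fit held these 2 groups alone (adjusted p = 0.16 and 0.101). The second HOXA5 probe set differed by 0.30 (SE 0.23), and the mean of both sets by -0.23 (adjusted p = 0.236). The other HOXB6 probe sets, 1 of the opposite-strand design and 1 dim on every array, differed by 0.36 (SE 0.24) and -0.11 (SE 0.18), neither past the test. With 18 arrays HOXB4, HOXB5, HOXB6, HOXC8 and HOXC9 were higher and 0 lower, beside 8.68% and 8.89%. HOXC9 changed sign between these fits, from -0.76 (adjusted p = 0.564) to 0.77 (adjusted p = 0.0235), since E9fm replicate 1 read 5.82 where the other 2 arrays read 9.69 and 9.56.

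In scale skin HOXC9 separated the compartments by the widest margin of the 8 genes. It read 9.76 and 9.97 in E9se against 5.02 and 4.94 in E9sm, and 9.34, 10.01 and 9.33 in E11se against 5.36, 5.49 and 5.08 in E11sm. The differences were -4.88 at E9 (SE 0.83, adjusted p = 0.000523) and -4.25 at E11 (SE 0.67, adjusted p = 0.000191). HOXA5 was lower in mesenchyme by -2.09 at E9 (adjusted p = 1.53e-05) and by -0.90 at E11 (adjusted p = 0.00349), and HOXA7 by -2.05 (adjusted p = 0.00255) and -1.01 (adjusted p = 0.0492). HOXC8 was lower at E11 (-0.95, adjusted p = 0.0441). The second HOXA5 probe set differed by -0.01 (SE 0.29) at E9 and -0.38 (SE 0.23) at E11, neither past the test. The calls of HOXC9 and HOXA5 held in all 20 refits that left out 1 array, at both ages, as did that of HOXA7 at E9. At E11, HOXA7 lost its call in 17 of these refits and HOXC8 in 15, and with the replicate number as a block HOXA7 had an adjusted p of 0.0594. The other HOXA7 probe sets were lower at E11 by -1.41 (limma, adjusted p = 0.00669), -0.82 (adjusted p = 0.104) and -0.25 (adjusted p = 0.731). The set at -1.41 is of the kind whose probes also match other transcripts. So 3 of the 8 genes were lower in mesenchyme at E9 and 4 at E11, and 0 were higher, beside 7.05% lower and 6.75% higher of all probe sets at E9 and 9.40% and 9.41% at E11. The counts of lower and higher genes were unchanged with 18 arrays (8.25% and 7.81% of all probe sets at E9, 10.7% and 10.5% at E11).

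**Figure D3:**
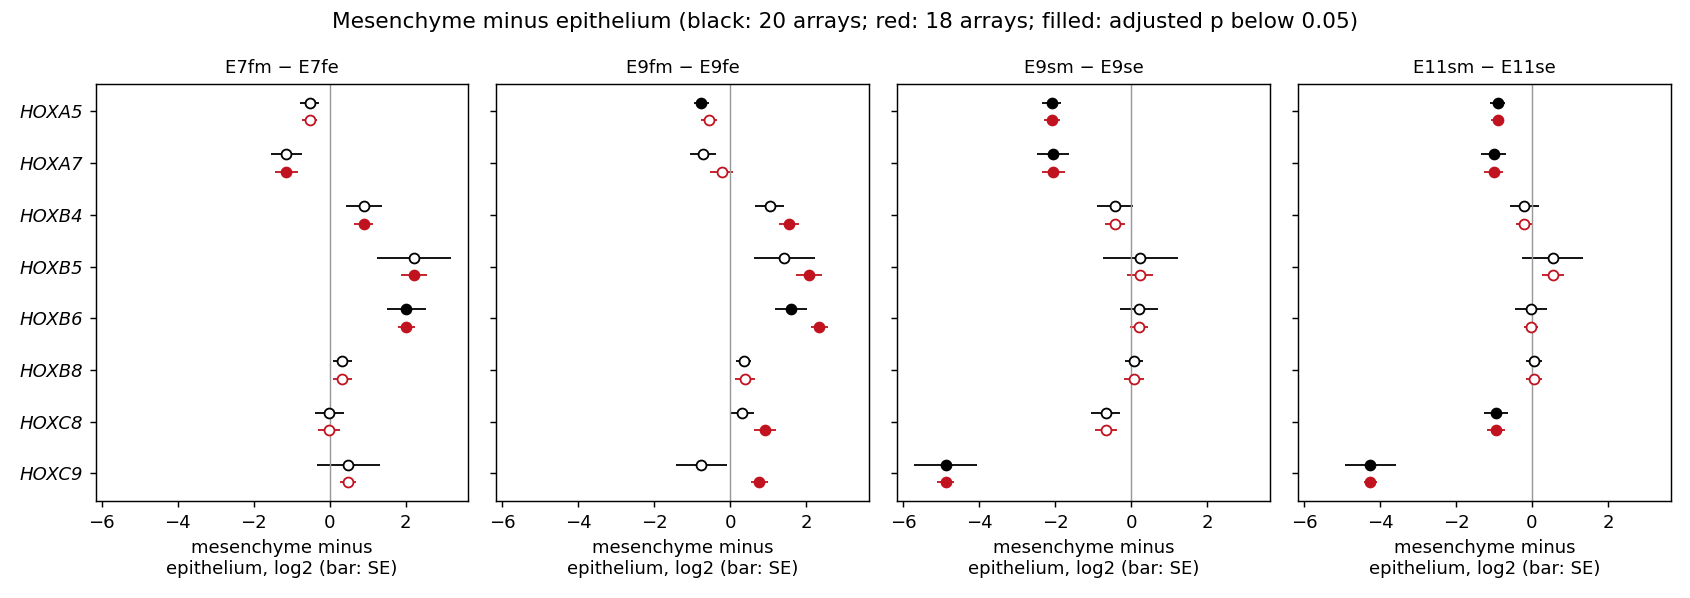
Mesenchyme minus epithelium log2 difference (horizontal axis, bar: standard error of the fit) of the 8 trunk HOX genes in each skin, with 20 arrays (black) and 18 (red), filled where the adjusted p was below 0.05. HOXB6 lies right of 0 in both feather panels and HOXC9 far left of 0 in both scale panels, at -4.88 and -4.25.

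The rest of the HOX clusters gives the setting of these differences. Of 10 other genes of the anterior and middle part of the clusters, 2 were lower in E9sm than in E7fm with 20 arrays and 0 higher, HOXA4 (-2.23, adjusted p = 0.0114) and HOXA6 (-1.94, adjusted p = 0.036), and 5 were lower with 18. Of all probe sets, 0.419% were called lower with 20 arrays and 1.01% with 18. HOXB3, beside HOXB4 in the cluster, differed by -3.02 in mesenchyme and -2.93 in epithelium, neither past the test with 20 arrays (adjusted p = 0.152 and 0.172). Of 11 posterior and distal genes 3 were higher in E9sm and 0 lower, HOXA13 (4.79), HOXD13 (3.64) and HOXD12 (3.55), which pattern the hand and foot, beside 0.369% of all probe sets called higher. With 18 arrays the counts were also 3 and 0, beside 0.996%. In this comparison the HOXA genes from HOXA2 to HOXA7 and the HOXB genes from HOXB1 to HOXB7 all had a negative difference, whether or not it passed, and so did HOXC8, HOXC9, HOXC11, HOXD4, HOXD8 and HOXD10. Some of these were very small. HOXB1 read 4.53 and 4.56 in E7fm and 4.43 and 4.54 in E9sm, and HOXC11 read 5.43 and 5.37 against 5.28 and 5.30. The HOXB8 probe set, next to HOXB7 in the cluster, was dim on every array. In late epithelium 1 of the 11 posterior and distal genes passed with 20 arrays, HOXA11, lower by -2.31 (adjusted p = 0.0238), and 0 of the 10 others did. There 0.187% of all probe sets were called lower. With 18 arrays HOXA11 (-2.19, adjusted p = 0.00784) and HOXA9 (-1.58, adjusted p = 0.0038) passed among the 11 and HOXB3 (-2.06, adjusted p = 0.00239) and HOXD4 (-2.00, adjusted p = 0.0221) among the 10, all lower, where 1.58% of all probe sets were called lower.

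**Figure D4:**
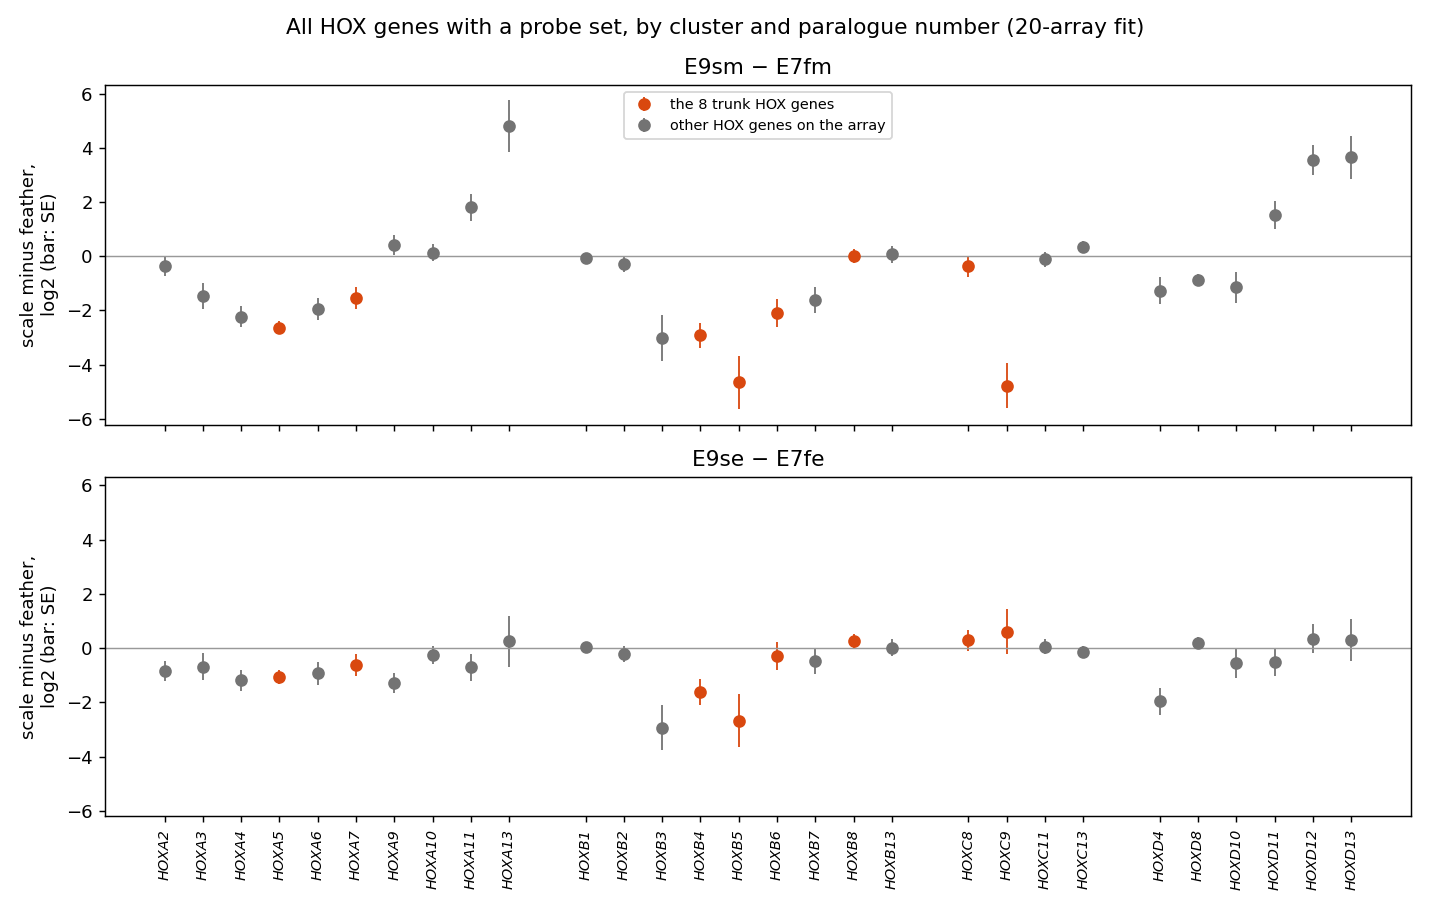
Scale minus feather log2 difference (vertical axis, bar: standard error of the 20-array fit) at the undifferentiated stage for every HOX gene with a probe set, ordered along each cluster, in mesenchyme (top) and epithelium (bottom). The 8 trunk genes are orange; HOXB5 (-4.66) and HOXC9 (-4.77) lie lowest in mesenchyme, where HOXA13 (4.79) lies highest.

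Genes that work with or upstream of HOX genes were read from 3 further lists. Among 6 TALE homeodomain genes (PBX, MEIS and related partners that bind DNA with HOX proteins), 12 regulators of HOX onset (retinoic acid, CDX and others) and 18 Polycomb and Trithorax genes, 0 passed in any of the 6 comparisons of scale with feather with 20 arrays (limma), where 0.333% of all differences over the 6 comparisons were called. An unadjusted p under 0.05 was found for 24 of the 216 differences (11.1%) and for 6.25% of those of all probe sets. With 18 arrays 15 of the 216 passed (6.94%), beside 2.50% of those of all probe sets. These passed for 5 of 36 differences of the TALE genes, 8 of 72 of the regulators of onset and 2 of 108 of the Polycomb and Trithorax genes. MEIS2, a HOX partner, was lower in scale mesenchyme in all 3 comparisons, by between -1.85 and -2.04, and MEIS1 in 2 of them, by -2.17 late (adjusted p = 0.0465) and -2.32 at E9 (adjusted p = 0.0451). RARB, a retinoic acid receptor, was higher in scale mesenchyme by 0.78 early, 1.10 late and 1.30 at E9, and in scale epithelium by 1.05 at E9. In epithelium CYP26A1, which breaks retinoic acid down, was higher in scale by 1.34 late and 1.26 at E9, and RXRG, a retinoid receptor, was lower by -1.31 and -1.53. JARID2, a Polycomb partner, was higher in late scale epithelium (0.99) and lower in late scale mesenchyme (-0.79, adjusted p = 0.0496).

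Across the arrays the trunk genes did not vary as one. Over the 10 mesenchyme arrays HOXC9 correlated with HOXB4 at r = 0.988, with HOXB6 at 0.974 and with HOXB5 at 0.966, whereas over the 10 epithelium arrays the same pairs gave -0.595, -0.299 and -0.666. HOXA5 and HOXA7, neighbours in the HOXA cluster but for HOXA6, correlated at 0.934 over the epithelium arrays and 0.704 over the mesenchyme arrays. These correlations are across arrays that share groups and are given as a description. Averaged over the 8 genes, each centred on its own mean, E9fm replicate 1 stood at -0.85, the other 2 E9fm arrays at 0.95 and 1.15, and the scale mesenchyme arrays at between -1.20 and -0.94. Among 12978 genes outside the HOX clusters, the 5 whose levels over the 20 arrays followed that mean profile most closely were LOC423474 (Pearson r = 0.93), PIK3IP1 (0.90), LRIG1 (0.87), PPM1E (0.86) and AGTPBP1 (0.86). The 5 that ran most nearly opposite were LOC424998 (-0.91), ABCC3 (-0.89), FAM46A (-0.89), BANP (-0.88) and TLE1 (-0.88).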

How the data were processed

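The authors normalised the Affymetrix chicken arrays by RMA with quantile normalisation (affy package in R) and deposited log2 values of 38535 probe sets on 20 arrays, which were used as deposited. The 96 control probe sets were left out, and 38439 were tested. Gene names came from the platform annotation: 27168 probe sets had 1 symbol, 177 several and 11094 none, and no gene was named from a set with several. Array medians ran from 5.618 to 5.686. Scanner intensities and detection calls were not used here, and the number of arrays limits the precision.

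One mean per group was fitted to all 8 groups in limma 3.58.1 (R 4.3.3), with eBayes and Benjamini-Hochberg adjustment over all probe sets within a comparison, called at an adjusted p below 0.05. The script was tested on simulated data. The study's methods count arrays differently (2 in every epithelial group, 3 in every mesenchymal one) from the sample labels, which were followed. Titles call the arrays biological replicates, and the tissue was labelled as pooled, so p-values rest on the spread between pools. That spread was taken over all 8 groups together, not from the compared groups alone. It thus includes the pair of arrays that stand apart, whose labels are in doubt. For HOXC9 in E9sm minus E7fm the SE was 0.83 with all arrays and 0.22 without the pair. The standard deviation of HOXC9 was 0.09 within E7fm and 0.06 within E9sm. Same-numbered arrays of the 3-array groups deviated together (r = 0.21 to 0.71 over probe sets), E9 feather arrays with E11 scale arrays included. What same-numbered arrays share was not tested. The main fit did not use the replicate numbers, and the replicate block was run as an alternative. Same-numbered E7fm arrays did not deviate together with those of E7fe (r = -0.37) or of E9sm (-0.33).

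Alternatives were the replicate number as a block, a fit of the compared groups alone, median centring, leaving out probe sets that did not reach a log2 level of 6 on 2 arrays, the mean of all probe sets of a gene, eBayes with trend and robust variance, array weights and leaving out each array. Leaving out the pair of arrays that stand apart, and crossing the E7fm numbers in the block, were added after the data were seen. All 10 genes on the list were reported whatever their values. From the other lists, up to 3 genes higher and 3 lower that passed were to be named in a comparison, with any others singled out after their values were seen, and the 5 genes most and least alike. The members and lists were chosen with earlier results of these data known.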

Additional observations from a re-analysis of the deposited data

Results flagged for a closer look

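Without the arrays labelled E9fe and E9fm replicate 1, 8 differences between compartments or stages passed a direct test in the 18-array fit (limma), and none of them passed in the main fit with all 20. Some passed in alternative limma fits that kept all 20. Array weights called HOXC9 at both stages (adjusted p = 0.00108 and 0.0211) and both HOXA5 differences (0.0055 between compartments, 0.0191 between stages). The pair was picked after its values were seen, and the trunk HOX genes are among those in which it stands apart. The 18-array p-values are therefore no independent support. The undifferentiated-stage differences use neither array of the pair, so leaving it out changed their error and not their size. At the undifferentiated stage, the scale minus feather difference was more negative in mesenchyme than in epithelium for HOXC9 (-5.38, SE 0.31, adjusted p = 1e-06), HOXB6 (-1.81, SE 0.32, adjusted p = 0.00772) and HOXA5 (-1.57, SE 0.29, adjusted p = 0.00937). At the differentiated stage the same held for HOXC9 (-5.02, SE 0.28, adjusted p = 3.71e-07), HOXB6 (-2.36, SE 0.29, adjusted p = 0.00037), HOXC8 (-1.86, SE 0.38, adjusted p = 0.0161) and HOXB4 (-1.74, SE 0.34, adjusted p = 0.0113). HOXB6 was near the lower quartile on all epithelium arrays, with little room to be lower in scale epithelium at either stage. HOXC8 was below the array median on every array, its highest values being those of E11se replicate 3 (5.17) and E9fm replicate 3 (5.16). In mesenchyme, the difference in HOXA5 was less negative at the differentiated than at the undifferentiated stage by 1.45 (SE 0.27, adjusted p = 0.0358). Both HOXA5 results are of the first probe set. With 20 arrays the second set differed by -0.07 in early mesenchyme, -0.23 in early epithelium and -0.57 in late mesenchyme.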

How the results depend on the processing

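Groups held 2 or 3 arrays each. With 18 arrays the number of genes called of 8 rose from 0 to 3 in early epithelium, 2 in late epithelium, 7 in late mesenchyme, 2 in epithelium and 6 in mesenchyme at E9, 1 in scale epithelium with stage, 3 and 4 for the early and late interaction and 1 for the mesenchymal stage interaction, from 1 to 4 between the E7 feather compartments and from 2 to 5 between the E9 ones. Array weights gave 2, 1 and 4 in early epithelium, late epithelium and late mesenchyme, 3 in mesenchyme at E9, 1 in scale epithelium with stage, 3 between the E7 compartments and 2, 1 and 1 for the interactions. Fitting the compared groups alone gave 3 in early epithelium, 3 for the early interaction, 4 between the E7 compartments, and 0 between the E9 feather compartments and in both feather stage comparisons. The mean of all probe sets gave 1 in late mesenchyme, 0 in both feather stage comparisons, 2 and 1 between the E7 and E9 feather compartments and 1 for the early interaction. Leaving out dim probe sets, HOXB8 and HOXC8 among them, gave 1 in early epithelium and 1 for the early interaction. The cause was not tested.

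Leaving out 1 array moved the count between 1 and 6 in early mesenchyme, 0 and 3 in early epithelium, 0 and 1 in late epithelium, 0 and 6 in late mesenchyme, 0 and 6 in mesenchyme at E9, 0 and 2 in feather epithelium, 0 and 1 in feather mesenchyme and 0 and 1 in scale epithelium with stage. Between compartments it ran from 0 to 4 at E7, 1 to 3 at E9 feather and 2 to 4 at E11, and for the early, late and mesenchymal stage interactions from 0 to 3, 0 to 3 and 0 to 1. Counts of 3 between the E9 scale compartments and of 0 in epithelium at E9, in scale mesenchyme with stage and for the epithelial stage interaction held in every such refit. The mesenchyme minus epithelium difference at E9 in feather skin changed sign for HOXC9 without E9fm replicate 1 (0.51) and with 18 arrays (0.77), and for HOXC8 without E9fm replicate 3 (-0.0629). Over the alternatives it ran from -1.43 (without E9fm replicate 2) to 0.77 for HOXC9 and from -0.0629 to 0.9114 (18 arrays) for HOXC8. The replicate block gave 5 genes in early mesenchyme and 3 between the E11 scale compartments, through HOXB6 (adjusted p = 0.0447) and HOXA7 (adjusted p = 0.0594), and changed no other call. With the E7fm numbers crossed it gave 4 and 3. Median centring took away the E11 call of HOXA7 (adjusted p = 0.0543), and eBayes with trend and robust variance changed the call of none of the 54 differences that passed with 20 or 18 arrays.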
